A study of Mus musculus with 3 samples.

Results

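The 10 genes described here build the MHC class I presentation route of the mouse, and they were measured in RAW macrophages, a mouse cell line, on single-colour (Cy3) SurePrint G3 Mouse GE microarrays. They were chosen by name, with earlier results of these data known. All gene probes whose gene symbol was *B2m*, *H2-K1*, *H2-D1*, *Tap1*, *Tap2*, *Tapbp*, *Psmb8*, *Psmb9*, *Psmb10* or *Nlrc5* were taken, which gave 17 probes of 60 bases among 56605 gene probes, and 10 genes among 26840 with a symbol. The question asked of the arrays was how 2 immunomodulatory lactobacilli change the response of macrophages to LPS, the agonist of the receptor TLR4. The LPS group received 50 ng/mL of LPS and no lactobacilli. The CRL1505 + LPS group received *L. rhamnosus* CRL1505 at 50000000 cells/mL for 24 h and then, after washing, the same dose of LPS. The CRL1506 + LPS group received *L. plantarum* CRL1506 at that density and for that time, and then LPS. LPS was applied for 12 h according to the description of the series and for 3 h according to the descriptions of the samples. The RNA of each group was hybridised to 1 array, so there is no replicate check, no test was possible and no p-value is given. Non-stimulated cells were not analysed here, and every comparison below is made among LPS-stimulated cells.

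MHC class I molecules show peptides from inside the cell to CD8+ T cells. The peptides are cut by the proteasome, whose catalytic subunits are exchanged for those of the immunoproteasome in cells exposed to interferon, carried into the endoplasmic reticulum by the transporter TAP, and loaded onto a class I heavy chain paired with beta-2 microglobulin with the help of tapasin. NLRC5 is the transactivator of this set of genes, and macrophages are known to raise the whole route after interferon and LPS.

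Intensities are given as log2 values relative to the array's 75th percentile over gene spots, and differences between arrays as log2 ratios, where a log2 ratio of 1 is a 2-fold difference. A gene is represented by its brightest probe. By the file headers, 1 slide and scan run held the arrays of LPS and of CRL1506 + LPS, and a different slide and run held that of CRL1505 + LPS, so that for CRL1505 strain and slide cannot be told apart. In LPS 54.5% of the gene spots were well above background, in CRL1505 + LPS 48.5% and in CRL1506 + LPS 55.3%. Repeated spots of a probe varied in log2 ratio by a median SD of 0.048, 0.044 and 0.047 for CRL1505 against LPS, CRL1506 against LPS and CRL1505 against CRL1506. Between different probes of a gene it was 0.23, 0.22 and 0.32, and these values served as the spread against which differences were read. Macrophage markers were present in each group, with 10 of 10 well above background. Of the T cell markers 3 of 5 were well above background on each array, with summed intensities of 3269.5, 4993.1 and 4031.7 in the order LPS, CRL1505 + LPS, CRL1506 + LPS, while *Cd3g* and *Cd8a* were not. Of the B cell markers 3, 2 and 3 of 5 were (356.3, 119.5 and 269.8), *Cd79a* not among them, of the dendritic cell markers 2, 2 and 4 of 5 (54586.5, 48523.8 and 73916.1, mostly *Siglech*), and of the fibroblast markers 0, 1 and 3 of 5 (118.5, 141.7 and 307.9). The part of these markers in the results was not tested. In RNA of whole cultures, fewer cells of a type and less RNA per cell cannot be told apart.

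On the brightest probes, the class I route was higher in macrophages given CRL1505 before LPS than in those given LPS alone, and little different in those given CRL1506 (see the plot of the values by array). With the scaling used here, the log2 value of each of the 10 genes on its brightest probe was lowest on the LPS array, intermediate on the CRL1506 + LPS array and highest on the CRL1505 + LPS array. However, the step from LPS to CRL1506 + LPS was within the spread for 6 of the 10 genes. That from CRL1506 + LPS to CRL1505 + LPS was within it for *Psmb8* (0.024). In CRL1505 + LPS, 5 of the 10 genes were at least 2-fold higher than in LPS, namely *Nlrc5*, *Tap1*, *Tapbp*, *Tap2* and *Psmb10*, where 9.93% of the 15603 genes compared were. In CRL1506 + LPS only *Nlrc5* was, 1 of 10, against 5.67% of 16279 genes. None of the 10 genes was at least 2-fold lower with either strain, against 8.41% of genes for CRL1505 and 3.53% for CRL1506. The median log2 ratio of the 10 genes was 0.97 for CRL1505 and 0.12 for CRL1506, and that of all genes compared was 0.011 and -0.063. Both comparisons use the same LPS array. All 10 brightest probes were well above background on the 3 arrays, none was marked as an outlier, and none was saturated.

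**Figure D1:**
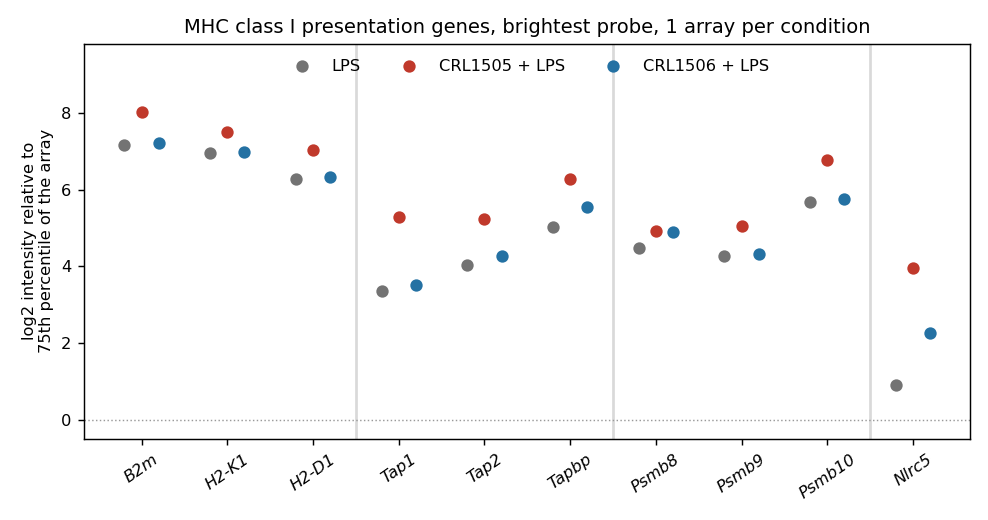
Log2 intensity (relative to the 75th percentile of the array) of the brightest probe of the 10 genes on the LPS, CRL1505 + LPS and CRL1506 + LPS arrays, 1 point per array, with vertical lines between class I molecules, peptide transport and loading, immunoproteasome and transactivator. The CRL1505 + LPS point is the highest for each gene, by 0.024 over CRL1506 + LPS for *Psmb8* and by 1.76 for *Tap1*.

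The 10 genes were also set beside genes of like brightness. There were 1662 genes whose mean log2 intensity lay within the range of the members other than *Nlrc5*. Their median log2 ratio was 0.15 for CRL1505, with an SD of 0.62, and -0.076 for CRL1506, with an SD of 0.34. All 10 members lay above that median with each strain, but *Nlrc5* is dimmer than these genes and so not matched to them. Among these bright genes 8.84% were at least 2-fold higher with CRL1505 and 1.26% with CRL1506, and 8.72% were at least 2-fold higher with CRL1505 than with CRL1506.

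**Figure D2:**
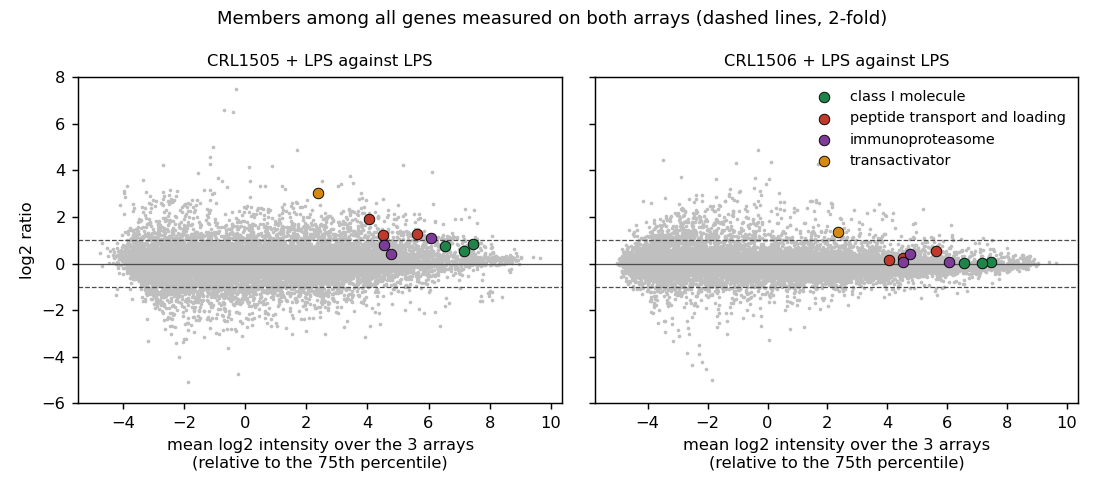
Log2 ratio against LPS (vertical) and mean log2 intensity over the 3 arrays (horizontal) of all genes well above background on both arrays compared, as grey points, with the 10 class I route genes coloured by role. With CRL1505 the 10 genes lie between 0.43 and 3.03, and with CRL1506 between 0.020 and 1.34, most of them near 0.

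None of the 3 genes of the class I molecules themselves reached 2-fold with CRL1505. *B2m* encodes beta-2 microglobulin, the light chain shared by all classical class I molecules. Its log2 value was 7.17 in LPS, 8.01 in CRL1505 + LPS and 7.22 in CRL1506 + LPS. With CRL1505 it was 1.80-fold higher (log2 ratio 0.85), more than the spread between probes, and with CRL1506 the log2 ratio was 0.055, within that spread. *H2-K1*, a classical heavy chain, had log2 values of 6.96, 7.50 and 6.98 in the same order. It was 1.45-fold higher with CRL1505 (0.53) and differed by 0.020 with CRL1506. *H2-D1*, the other classical heavy chain among the 10 genes, had log2 values of 6.29 in LPS, 7.02 in CRL1505 + LPS and 6.32 in CRL1506 + LPS. Its ratio was 1.67-fold with CRL1505 (0.74) and 0.034 on the log2 scale with CRL1506. On these brightest probes, the LPS and CRL1506 + LPS arrays did not differ beyond the spread for any of the 3. With spike-in scaling, one of 7 other normalizations, the CRL1505 ratio of *H2-K1* fell to -0.10, that of *B2m* was 0.21 and that of *H2-D1* was 0.10.

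The promoters of these 3 genes hold a shared arrangement of letters. Class I promoters are known for a module of boxes named S, X1, X2 and Y, on which the factors that recruit NLRC5 sit, and for upstream elements of NF-kB and interferon regulatory factors. RefSeq windows of 250 bases before and 50 after the transcript start (GRCm38.p6) were available for 8 of the 10 genes, *Tap2* and *Nlrc5* not among them. For a member with several starts the most downstream one was used, whereas the shares over all windows count every start. The X2 core TGACG and the Y box ATTGG, separated by 20 bases on the same strand, were found in the windows of *H2-K1*, *H2-D1* and *B2m*, 3 of 8, and in 31 of 32851 windows in all (0.0944%). This pair was searched for after the sequences had been seen, on both strands, so the count describes the windows and is no test. The stretches are shown because they set the most similar letters of these promoters side by side, with the X2 core and the Y box in capitals, 5′ to 3′ on the strand of the gene: *H2-K1* at chr17:34000359-34000388 (minus strand), *H2-D1* at chr17:35262993-35263022 (plus strand) and *B2m* at chr2:122147609-122147638 (plus strand).
H2-K1: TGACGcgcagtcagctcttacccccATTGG
H2-D1: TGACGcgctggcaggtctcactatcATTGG
B2m: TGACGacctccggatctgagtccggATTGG

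The 31 windows belong to 27 genes. Besides the 3 members, only *H2-M3*, a non-classical class I gene, is a class I gene among them, with log2 ratios of 1.07 for CRL1505 and -0.055 for CRL1506. Of the other 23 genes, 17 were well above background on both arrays for CRL1505, with a median log2 ratio of 0.27. Alone, the X2 core was in 20.8% of all windows and the Y box in 37.4%.

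The whole upstream stretches of *B2m* and *H2-D1* are given because they carry further known elements. Capitals mark, in *B2m* (chr2:122147543-122147686, plus strand, ending at the base before the transcript start), an interferon-stimulated response element (GAAA, any 2 bases, GAAA), a kappa B motif, the X2 core and the Y box. In *H2-D1* (chr17:35262918-35263093, plus strand) they mark a kappa B motif, the X2 core and the Y box at the spacing above. A second Y box match of *H2-D1*, which reads ccaat and begins at -53 from the transcript start, is left in lower case.
B2m: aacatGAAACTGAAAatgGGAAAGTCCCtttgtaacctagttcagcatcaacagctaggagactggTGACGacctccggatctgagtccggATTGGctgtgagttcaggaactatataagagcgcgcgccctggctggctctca
H2-D1: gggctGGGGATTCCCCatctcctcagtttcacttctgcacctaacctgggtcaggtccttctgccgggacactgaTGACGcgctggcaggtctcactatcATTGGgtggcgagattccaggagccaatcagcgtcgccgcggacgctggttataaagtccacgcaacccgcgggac

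The response element, searched on both strands, was in 1 of the 8 member windows (*B2m*) and in 3.44% of all windows. The kappa B motif was in 3 of 8 (*B2m*, *H2-K1* and *H2-D1*) and in 8.46% of all, and the gamma-activated site TTCNNNGAA in 1 of 8 (*Psmb8*) and in 8.3% of all. A match is a description of the letters and not a binding site. Only these exact letters were searched, so other forms of an element are neither counted nor marked. A window without a match, such as that of *H2-D1* for the response element, is not shown to lack one.

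Heavy chain genes are near copies of each other, which touches the *H2-K1* values. The second *H2-K1* probe shares an unbroken run of 29 bases with probes listed under 2 other class I symbols, *H2-L* and *H2-T23*. Among the 44 probes of other class I genes the next longest run shared with a member's probe was 14 bases. The 3 probes are shown 5′ to 3′ with the shared run in capitals, from mm9 chr17:34133984-34134043 (minus strand) for *H2-K1*, chr17:35403191-35403250 (plus strand) for *H2-L* and chr17:36167338-36167574 (minus strand) for *H2-T23*, where the last position spans more than the length of the probe.
H2-K1: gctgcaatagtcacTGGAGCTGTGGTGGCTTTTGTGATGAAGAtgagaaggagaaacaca
H2-L: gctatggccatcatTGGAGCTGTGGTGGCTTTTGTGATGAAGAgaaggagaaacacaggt
H2-T23: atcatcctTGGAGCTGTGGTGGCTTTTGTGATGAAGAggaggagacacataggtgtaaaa

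For CRL1505 the log2 ratios of these 3 probes were 0.85, 0.70 and 0.69, and for CRL1506 they were 0.15, 0.16 and 0.18. These 3 probes gave nearly the same ratios, and how much of each signal comes from its own gene was not tested. The *H2-L* probe lies near the *H2-D1* probe, which is listed at mm9 chr17:35403886-35403945 on the same strand. Whether it reports a gene apart from *H2-D1* was not tested. RAW macrophages come from a BALB/c mouse, whose class I alleles differ from those of the C57BL/6J reference, and the match of the probes to the alleles of the line was not tested. *B2m* also had a second probe, at mm9 chr2:121974599-121974658 and listed without a RefSeq transcript, whose ratios were -0.085 for CRL1505 and 0.74 for CRL1506. It was thus at odds with the brightest *B2m* probe, at chr2:121978401-121978460, in both comparisons, and on it CRL1505 + LPS lay below CRL1506 + LPS, with a log2 ratio of -0.83.

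Of the genes of peptide transport and loading, all 3 were past 2-fold with CRL1505 on their brightest probes. *Tap1* and *Tap2* encode both chains of the TAP transporter. The log2 value of *Tap1* was 3.36 in LPS, 5.27 in CRL1505 + LPS and 3.51 in CRL1506 + LPS. This was a 3.78-fold difference for CRL1505 (log2 ratio 1.92), the highest after *Nlrc5*, and 1.11-fold for CRL1506 (0.15). The second *Tap1* probe gave 1.87 and 0.17. *Tap2* had log2 values of 4.02, 5.24 and 4.27, and ratios of 2.33-fold (1.22) and 1.19-fold (0.25). Its second probe was well above background only on the CRL1506 + LPS array, at least 1.73-fold higher there than in LPS and at least 1.35-fold higher than in CRL1505 + LPS, and gave no ratio of CRL1505 to LPS. *Tapbp* encodes tapasin, which bridges TAP and the empty class I molecule. Its log2 value was 5.02 in LPS, 6.27 in CRL1505 + LPS and 5.54 in CRL1506 + LPS. The ratios were 2.37-fold with CRL1505 (1.25) and 1.43-fold with CRL1506 (0.52), and 1.08 and 0.68 on the log2 scale for its second probe. *Tapbp* was the only gene of this group that differed with CRL1506 by more than double the spread. *Tap1* was at least 2-fold higher with CRL1505 under 7 of 7 other normalizations, whereas *Tap2* and *Tapbp* were under 6 of 7, being 0.59 and 0.61 with spike-in scaling.

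**Figure D3:**
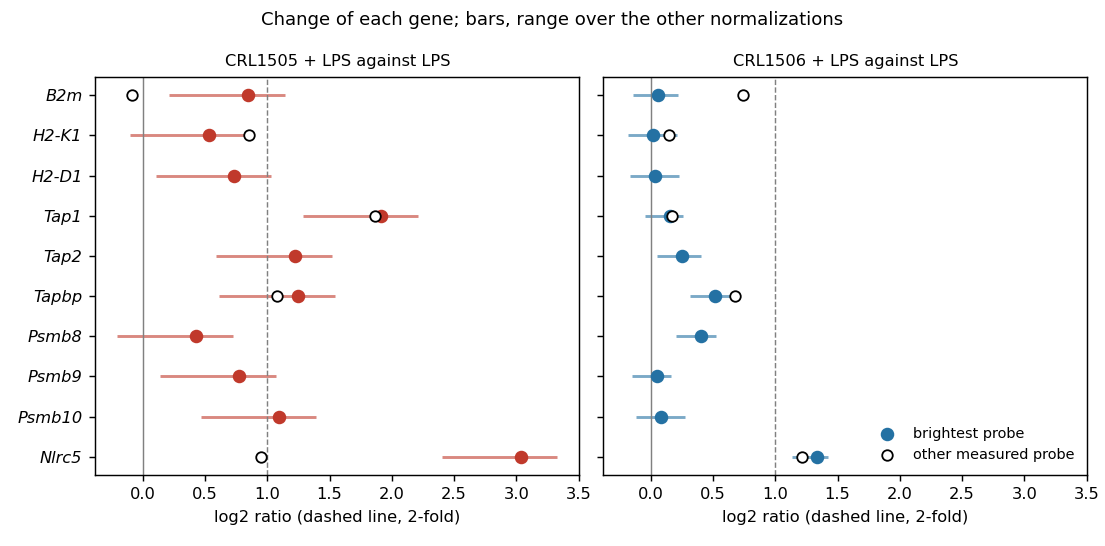
Log2 ratio of each of the 10 genes against LPS for CRL1505 + LPS (left) and CRL1506 + LPS (right). Filled points show the brightest probe, open points another probe measured on both arrays, horizontal bars the range over 7 other normalizations, and the dashed line a 2-fold difference. The bar of *Tap1* with CRL1505 runs from 1.28 to 2.21, beyond 2-fold throughout, and the open points of *B2m* and *Nlrc5* lie apart from the filled ones.

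*Tap1* and *Psmb9* lie head to head in the MHC region, and the transcript starts used here are separated by 225 bases at chr17:34187331-34187555 (GRCm38.p6). The stretch is printed on the plus strand, the strand of *Tap1*, because it is the only sequence before the starts of both genes. Capitals mark a Y box, which reads CCAAT here since it lies on the strand of *Psmb9*, and an X2 core on the strand of *Tap1*.
Psmb9-Tap1: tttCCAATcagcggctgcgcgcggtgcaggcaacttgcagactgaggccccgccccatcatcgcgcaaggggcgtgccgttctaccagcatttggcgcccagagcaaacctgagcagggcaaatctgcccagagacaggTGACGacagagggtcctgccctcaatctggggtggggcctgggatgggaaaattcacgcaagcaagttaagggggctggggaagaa

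The stretch holds no response element, gamma-activated site or kappa B motif by the letters searched. Although they share this sequence, the pair differed in size, with log2 ratios for CRL1505 of 1.92 for *Tap1* and 0.77 for *Psmb9*. On mm9 the probes of *Psmb9*, *Tap1*, *Psmb8* and *Tap2* follow each other within chr17:34319174-34353175, and 7 of the 10 genes lie on chromosome 17. Neighbours in this cluster thus ranged from 0.43 (*Psmb8*) to 1.92 (*Tap1*) with CRL1505.

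Of the immunoproteasome subunits, 1 of 3 passed 2-fold with CRL1505. *Psmb10* encodes the trypsin-like subunit beta 2i. Its log2 value was 5.68 in LPS, 6.78 in CRL1505 + LPS and 5.76 in CRL1506 + LPS, a 2.14-fold difference with CRL1505 (1.10) and 1.06-fold with CRL1506 (0.082). Under other normalizations the CRL1505 ratio lay between 0.47 and 1.39, and at least 2-fold in 3 of 7. *Psmb9*, which encodes beta 1i, had log2 values of 4.26, 5.04 and 4.31. It was 1.71-fold higher with CRL1505 (0.77) and 1.03-fold with CRL1506 (0.047). The spot of this probe on the CRL1505 + LPS array had 5 uneven spots among its 20 nearest, although it was not uneven itself. The second *Psmb9* probe was well above background only on the CRL1506 + LPS array, at least 2.33-fold higher there than in LPS and at least 1.82-fold higher than in CRL1505 + LPS, and so did not follow the brightest probe. *Psmb8*, which encodes the chymotrypsin-like beta 5i, stood apart from the other members. Its log2 value was 4.48 in LPS, 4.91 in CRL1505 + LPS and 4.89 in CRL1506 + LPS. The ratios were 1.35-fold (0.43) and 1.32-fold (0.41), so that the lactobacilli groups differed by 0.024, within the spread. With spike-in scaling the CRL1505 ratio of *Psmb8* was -0.20.

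Each of these subunits replaces a constitutive one, and a shift of a whole array cancels in the difference between the ratios of such a pair. The constitutive *Psmb5*, *Psmb6* and *Psmb7* had log2 ratios of -0.19, 0.12 and 0.30 with CRL1505, and of 0.039, -0.024 and -0.22 with CRL1506, none past 2-fold. With CRL1505 the log2 ratio of *Psmb8* exceeded that of *Psmb5* by 0.62, and by 0.56 to 0.64 under the other normalizations. For *Psmb9* over *Psmb6* the excess was 0.65 (0.58 to 0.69), and for *Psmb10* over *Psmb7* it was 0.80 (0.76 to 0.88). With CRL1506 the excess was 0.37 (0.36 to 0.41) for *Psmb8*, 0.072 (-0.014 to 0.13) for *Psmb9* and 0.30 (0.30 to 0.39) for *Psmb10*. The immunoproteasome subunits were thus higher relative to their partners in CRL1505 + LPS under each normalization, whereas in CRL1506 + LPS the direction for *Psmb9* depended on it.

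**Figure D4:**
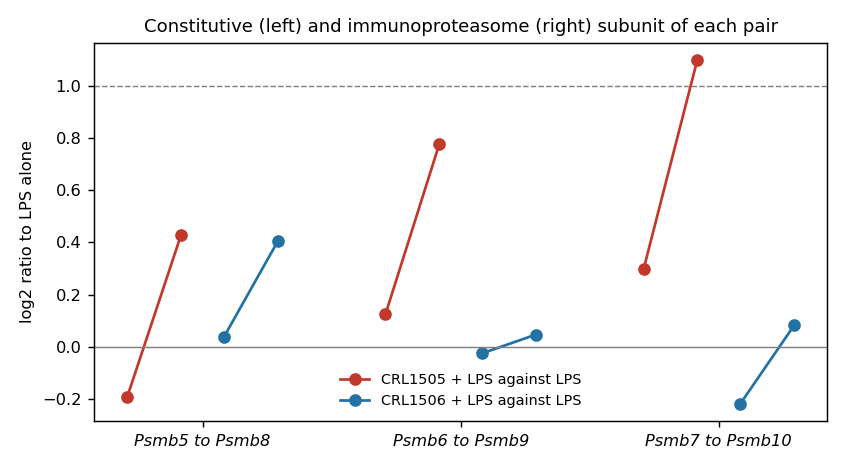
Log2 ratio to LPS alone of the constitutive subunit (left point) and the immunoproteasome subunit (right point) of each pair, for CRL1505 + LPS and CRL1506 + LPS, with the dashed line at 2-fold. Each line rises from left to right, by 0.62, 0.65 and 0.80 with CRL1505 and by 0.37, 0.072 and 0.30 with CRL1506.

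*Nlrc5*, the transactivator, differed most of the 10 genes with each strain. Its intensity was 1396.0 in LPS, 7951.0 in CRL1505 + LPS and 3313.9 in CRL1506 + LPS, which are log2 values of 0.91, 3.94 and 2.25. It was thus low in LPS, intermediate in CRL1506 + LPS and high in CRL1505 + LPS. The difference was 8.19-fold with CRL1505 (log2 ratio 3.03), the only member past 4-fold, where 2.99% of genes were. With CRL1506 it was 2.53-fold (1.34). The ratio stayed past 2-fold under 7 of 7 other normalizations with both strains, from 2.40 to 3.33 and from 1.14 to 1.42. The second *Nlrc5* probe was dimmer, with log2 values of -2.27, -1.33 and -1.06, and gave 0.95 for CRL1505 and 1.22 for CRL1506. On the LPS array, on which both ratios rest, its spot had 5 uneven spots among its 20 nearest, although it was not uneven itself. On that probe CRL1505 + LPS was not above CRL1506 + LPS, with a log2 ratio of -0.27. Its listed position, mm9 chr8:97030478-97030624, spans more than the length of the probe, while the brightest probe lies at chr8:97051105-97051164. With the mean over both probes, the CRL1505 ratio was 1.99.

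Set against each other, the lactobacilli groups differed in 3 of the 10 genes by at least 2-fold, all higher with CRL1505, where 9.02% of 15780 genes were higher, and in none lower, where 7.47% were. These were *Tap1* (3.40-fold, log2 ratio 1.76), *Nlrc5* (3.24-fold, 1.70) and *Psmb10* (2.02-fold, 1.02). *Tap1* and *Nlrc5* were past 2-fold in 7 of 7 other normalizations, but *Psmb10* in only 2 of 7 (0.50 to 1.51). *Tap2* followed with 0.97, *B2m* with 0.79, *Tapbp* and *Psmb9* with 0.73 each, *H2-D1* with 0.70 and *H2-K1* with 0.51. *Psmb8*, with 0.024, was the only gene within the spread on the brightest probes. The median of the 10 genes was 0.76 and that of the 1662 genes of like brightness 0.21. These arrays also lay on different slides. For 4 genes with a second probe the order of the strains rests on the brightest one. The second probes of *B2m* and *Nlrc5* gave -0.83 and -0.27, and those of *Tap2* and *Psmb9*, dim in CRL1505 + LPS, were higher with CRL1506. Those of *H2-K1*, *Tap1* and *Tapbp* gave 0.70, 1.69 and 0.40, where the *H2-K1* probe is the one that shares a run with *H2-L* and *H2-T23*. The other 3 genes, *H2-D1*, *Psmb8* and *Psmb10*, had 1 probe each, so their order could not be checked on another probe. With the mean over all probes of a gene, dim ones included, the log2 ratio of CRL1505 to CRL1506 was -0.018 for *B2m*, 0.088 for *Tap2*, -0.59 for *Psmb9* and 0.71 for *Nlrc5*, and that of *Tap1* was 1.73.

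All of these ratios move with the scaling of the arrays, which is chosen and not measured. Over the genes well above background on both arrays, the median log2 ratio was 0.057 (CRL1505) and -0.065 (CRL1506). A shift by the array medians in place of the 75th percentile moved it to 0.35 and -0.26, and spike-in scaling to -0.58 and -0.18. Relative to that median, the median of the 10 genes lay between 0.78 and 0.93 higher with CRL1505 over 8 normalizations, the one used here included, and between 0.16 and 0.31 higher with CRL1506. A shift of a whole array cancels in this measure. The 75th percentile over all spots or over probes seen on every array, the median and spike-ins thus all gave 0.92 (CRL1505) and 0.18 (CRL1506). Under quantile normalization, cyclic loess, normexp and the deposited table, the class I route also stood above the other genes by less with CRL1506 than with CRL1505. In absolute sign, *H2-K1* and *Psmb8* were below 0 with CRL1505 under spike-in scaling only, and *B2m*, *H2-K1*, *H2-D1*, *Psmb9* and *Psmb10* were above 0 with CRL1506 in 5 of 7 other normalizations and *Tap1* in 6.

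Other genes of the route were taken from lists. Of 30 further class I genes, 28 were on the array and 19 could be compared for CRL1505, of which 5 were at least 2-fold higher and 1 lower, and 20 for CRL1506, of which 2 were higher and 1 lower. Of all genes compared, 9.93% were higher and 8.41% lower with CRL1505, and 5.67% and 3.53% with CRL1506. The median log2 ratio of these class I genes was 0.74 and 0.18. The higher ones belonged to the non-classical genes. *H2-T24* had log2 values of -1.37, 1.01 and 0.47, and log2 ratios of 2.39 and 1.84. *H2-T9* had ratios of 1.74 and 1.04, *H2-T22* of 1.74 and 0.70, and *H2-T10* of 1.71 and 0.76. *H2-L*, listed as a classical heavy chain but with its probe near that of *H2-D1*, had 0.70 and 0.16. *H2-M10.6* was the lower gene in both comparisons and rests on a bound, since it was well above background on the LPS array only.

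Among 5 class I-like molecules, which share the fold but not the peptide cargo, 2 were at least 2-fold lower with CRL1505 and 1 with CRL1506, and none was higher. The shares of all genes that were lower were 8.41% and 3.53%. *Cd1d1*, which presents lipids, had log2 values of -0.21 in LPS, -2.36 in CRL1505 + LPS and -0.22 in CRL1506 + LPS, a log2 ratio of -2.15 with CRL1505 and -0.016 with CRL1506. *Fcgrt*, the heavy chain of the neonatal Fc receptor, which also pairs with beta-2 microglobulin, had ratios of -1.06 and -1.01. *Cd1d1* and *Fcgrt* were thus lower with CRL1505, where *B2m*, their light chain, was higher on its brightest probe (0.85) but not on its other probe (-0.085). *Fcgrt* was lower to a like degree with CRL1506.

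Of 12 genes of peptide loading and trimming, 1 was at least 2-fold higher with CRL1505 and none with CRL1506, where 9.93% and 5.67% of all genes were. The higher gene was *Lnpep*, an aminopeptidase of endosomes, with 1.16 and 0.20, and 0.73 to 1.16 and -0.048 to 1.83 over its 4 probes. *Tapbpl*, a relative of tapasin that edits peptides, had 0.99 and -0.072, and the chaperone gene *Hspa5* had 0.98 and -0.053. The trimming aminopeptidase *Erap1* had 0.66 and -0.12. The chaperones of the loading complex did not follow *Tapbp*, with -0.69 and 0.051 for *Calr*, -0.12 and -0.28 for *Canx* and 0.11 and -0.23 for *Pdia3*. Of the proteasome activators, *Psme1*, a subunit of PA28 inducible by interferon, had 0.37 and -0.13, and *Psme3*, which encodes the nuclear activator PA28 gamma, had 1.29 and -0.32 but -0.15 and 0.30 on its other probe. *Psme2* had no probe under that symbol.

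Of 13 regulators of class I transcription, 12 were compared for CRL1505 and 4 of them were at least 2-fold higher, while none of 13 was with CRL1506. The shares of all genes were 9.93% and 5.67%. *Stat2*, which carries type I interferon signals to the nucleus, had log2 values of 3.13, 4.69 and 3.66, and ratios of 1.56 with CRL1505 and 0.53 with CRL1506, and 0.37 and 0.61 on its other probe. *Irf2* had 2.22 and -0.050, but its other probe gave 0.65 and 2.43, the reverse order of the strains. *Rfx5*, a factor of the X box, had 1.59 and 0.13 at log2 values of -3.81, -2.23 and -3.68, near the lowest values well above background in LPS and CRL1506 + LPS. *Irf1*, an activator of class I genes, was not among the higher ones, with log2 values of 6.08, 6.22 and 5.57 and ratios of 0.14 and -0.51. *Nfkb1* had 0.71 and -0.38, and between the lactobacilli groups its 3 probes ranged from -1.17 to 1.10. The strain pattern of *Stat2*, *Irf2* and *Nfkb1* thus depended on the probe.

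Of the interferons that act on the route, *Ifng* was on no array well above background. In the interferon-gamma pathway *Jak2*, the kinase of its receptor, had 1.53 and 0.54, and *Socs1*, an inhibitor of that kinase, had 1.54 and 0.30. In that list 2 of 6 genes compared were at least 2-fold higher with CRL1505 and none of 6 with CRL1506, where 9.93% and 5.67% of all genes were. *Ifnb1*, which encodes interferon beta, had log2 values of 1.61 in LPS, 5.08 in CRL1505 + LPS and 3.93 in CRL1506 + LPS. All 10 members had this order of arrays on their brightest probes, but the second *Nlrc5* probe did not. A link of *Ifnb1* to any member was not tested. *Ifnar1*, a receptor chain of interferon beta, had ratios of 0.46 for CRL1505 and 1.37 for CRL1506. However, its 4 probes ran from -0.41 to 0.47 and from -0.43 to 1.37, so that no direction can be given.

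**Figure D5:**
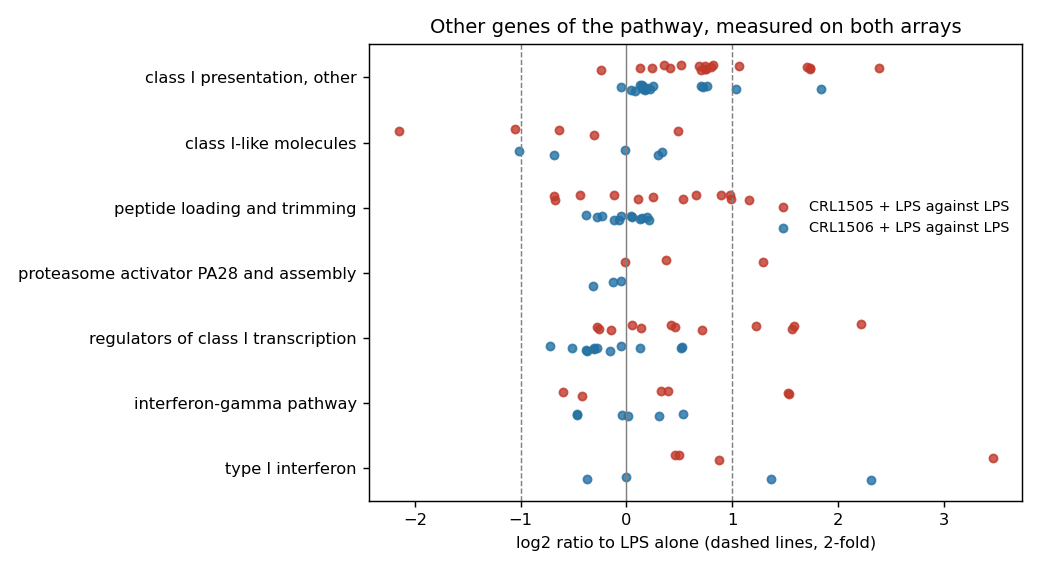
Log2 ratio to LPS alone of the other genes of the class I route and its regulators detected above background on both sides of the comparison, 1 point per gene, by list, for CRL1505 + LPS and CRL1506 + LPS, with dashed lines at 2-fold. Vertical offsets within a list only separate the points. Points beyond 2-fold lie mostly in the non-classical class I genes, the regulators and the interferon lists, with *Ifnb1* at 3.46 (CRL1505) and 2.31 (CRL1506) and *Cd1d1* at -2.15 (CRL1505).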

How the data were processed

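RNA of 3 groups of RAW macrophages was measured on 1 array each. The authors deposited the Feature Extraction output (version 12.0.3.1 per the file headers, 10.7.3.1 in the description of the series), in which the processed intensity of each spot is corrected for background but not normalized between arrays, and a table of log2 values normalized by the authors between arrays. The settings of that normalization are not given in the sources used here, and the labels name limma. From each log2 intensity the 75th percentile of its array's gene spots was subtracted, and outlier spots were left out. A ratio is a bound if only 1 of the arrays compared had the probe well above background, and no ratio was formed if neither had. Genes were counted at 2-fold, the threshold of the study, whose test needs replicates and was not run. The precision is limited by the number of arrays, and the 75th percentile lay at intensities of 743.1 (LPS), 517.0 (CRL1505 + LPS) and 697.9 (CRL1506 + LPS).

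The members and the gene lists were chosen with earlier results of these data known. Genes named are the 10 members, listed pathway genes past 2-fold in any comparison on a probe well above background on both arrays, and a fixed set with *Psmb5*, *Psmb6*, *Psmb7*, *Psme1*, *Psme2*, *Irf1*, *Ifnb1*, *Ifng*, *Erap1*, *Calr*, *Canx*, *Pdia3* and *H2-L* whatever their values. Some listed genes are not reported here. *H2-T23* was named for the shared run of its probe, *H2-M10.6* as the single lower gene, and marker genes from their lists. Alternatives were quantile normalization, cyclic loess, a shift by the median, by 8 spike-in probes or by the 75th percentile of probes seen on every array, normexp (offset 50), the deposited log2 table, other filters on dim, outlier and uneven spots, the mean over probes, and thresholds of 1.5-fold and 4-fold. A spot was called uneven where its mean pixel signal exceeded its median by over 0.2 on the log2 scale. The filter on uneven spots dropped these and any spot with 5 or more of them among its 20 nearest. Python 3.11.15, pandas 2.3.3, NumPy 2.4.6, R 4.3.3 and limma 3.58.1 were used, and the procedure was tested on simulated data. Probe positions are those of the files (mm9), where exon annotation was not used here, and promoter windows are those of RefSeq (GRCm38.p6).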

Additional observations from a re-analysis of the deposited data

How the results depend on the processing

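Of the medians and counts of the 10 genes, 107 values under other settings moved by less than the spread or stayed within 1.5 times, 13 moved further. No value past 2-fold changed sign, but the median for CRL1506 against LPS, 0.12, became -0.083 with the median shift, a move within the spread. For CRL1505 against LPS the median became 1.27 with the median shift and 0.34 with spike-in scaling, and the count of genes at least 2-fold higher became 8 and 2. The median over all genes well above background on both arrays moved with them, to 0.35 and -0.58. The share of all genes at 2-fold was not counted under these scalings, so these counts have no background beside them. With the scaling used here, the count was 8 at 1.5-fold (19.1% of all genes) and 1 at 4-fold (2.99%). For CRL1506 against LPS the median became 0.40 with the mean over probes, and no gene passed 4-fold (1.3% of all genes). For CRL1505 against CRL1506 the median became 1.26 with the median shift and 0.24 with spike-in scaling, and the count became 9 with the median shift, 8 at 1.5-fold (19% of all genes) and 0 at 4-fold (2.46%). That count was 2 with spike-in scaling, quantile normalization, cyclic loess and the deposited table. The 75th percentile of probes seen on every array and the mean over probes also gave 2. The share of all genes at 2-fold was not counted for these settings. With the median shift the median over all genes well above background on both arrays was 0.58 here, and the share at 2-fold was not counted. The median shift and spike-in scaling move every gene of an array by the same amount, and which of them is right cannot be told from 1 array per condition. Of the values of single genes, 303 moved by less than the spread and 55 by more. For CRL1505 against CRL1506 the mean over probes took *Psmb9* from 0.73 to -0.59, *B2m* from 0.79 to -0.018 and *Tap2* from 0.97 to 0.088. Leaving out uneven spots and spots with at least 5 uneven ones among their 20 nearest removed the brightest *Psmb9* probe on the CRL1505 + LPS array, so that no *Psmb9* ratio could be had for CRL1505 against LPS or for CRL1505 against CRL1506. No paired analysis was possible because each group has 1 array. Arrays limit the precision by their number, and dim probes, such as the second ones of *Tap2*, *Psmb9* and *Nlrc5*, by their closeness to background.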

Other observations

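In the lists for the check of the cell type, 2 of 10 macrophage genes were at least 2-fold higher with CRL1505, as *Nlrc5* and *Tap1* were. Of all genes compared, 9.93% were. *Fcgr1*, which encodes a high-affinity receptor for IgG, had log2 values of 2.67 in LPS, 5.07 in CRL1505 + LPS and 3.62 in CRL1506 + LPS, with log2 ratios of 2.40 and 0.95. *Adgre1*, which encodes a surface antigen of macrophages, had 2.61, 4.88 and 3.62, with 2.27 and 1.003. *Csf1r*, the receptor of the macrophage growth factor CSF-1, had 7.34, 5.87 and 6.47, with -1.47 and -0.87. The kinase gene *Lck*, from the T cell list, had 1.63, 3.09 and 2.15, with 1.46 and 0.52. These genes were singled out after their values were seen.

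Of the genes outside the route whose promoter window holds the X2 core and Y box at the spacing found in *B2m*, *H2-K1* and *H2-D1*, 1 of 17 was at least 2-fold higher with CRL1505 (*Trim26*, 1.84), where 9.93% of all genes compared were, and 2 of 18 were with CRL1506 (*Kcnq1ot1*, 1.96, and *Slc8a3*, 1.03), where 5.67% were. These genes were named after their values were seen.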
